A study of Mus musculus with 8 samples.

Results

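The small leucine-rich proteoglycans are secreted matrix proteins, and 10 of them, Dcn, Bgn, Aspn, Fmod, Lum, Prelp, Kera, Omd, Ogn and Epyc, were taken from the gene table by their gene names, out of 55401 genes listed. All 10 passed the filter on low counts, which left 17190 genes for testing. RNA was sequenced from primary mandibular fibrochondrocytes, the collagenase-released cells of the condylar cartilage of the jaw joint, grown in AMEM with serum and without any treatment to passage 4. The 4 NG2ko libraries came from pups homozygous for a reporter-tagged (LacZ) deletion allele of Cspg4 that is present in every cell of the animal, on a line received as Tm1b-6N and backcrossed to C57BL/6J. The 4 WT libraries came from C57BL/6J control pups, of mice bought from Jackson Laboratory. Pups were 10 to 14 days old by the labels and 14 days old by the sequencing methods. The samples of a genotype are described as biological replicates, with no word on how many pups went into each. Cspg4 encodes NG2, a transmembrane chondroitin sulfate proteoglycan that binds type VI collagen.

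Small leucine-rich proteoglycans have a curved core of leucine-rich repeats that holds onto collagen fibrils, and most carry chondroitin, dermatan or keratan sulfate chains. They set fibril diameter and spacing in tendon, cornea, bone and cartilage, and several bind growth factors of the TGF-beta family. By sequence they fall into class I (decorin, biglycan and asporin), class II (fibromodulin, lumican, PRELP, keratocan and osteomodulin) and class III (osteoglycin and epiphycan).

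The family was not altered as a block in NG2ko fibrochondrocytes. Omd and Ogn, which encode osteomodulin and osteoglycin, nearly doubled, Fmod, Aspn and Dcn rose by less, and Prelp fell. Bgn, Lum and Kera did not pass the test, nor did Epyc, which was close to the limit of detection. Therefore 5 of the 10 members were higher and 1 was lower at an adjusted p under 0.05 by edgeR's quasi-likelihood test with Benjamini-Hochberg adjustment over all tested genes, against 12.2% of tested genes called in either direction, 5.45% called higher and 6.75% called lower. The median log2 fold change of the members was 0.23, and that of all tested genes was 0.02. CPM values are counts scaled to library size after edgeR's TMM adjustment. In 7 of the 10 members the CPM of the 2 groups did not overlap, against 19.9% of tested genes with no overlap. NG2ko was higher in 5 of them and lower in 2, Prelp and Epyc, and the raw counts of Epyc did overlap.

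**Figure D1:**
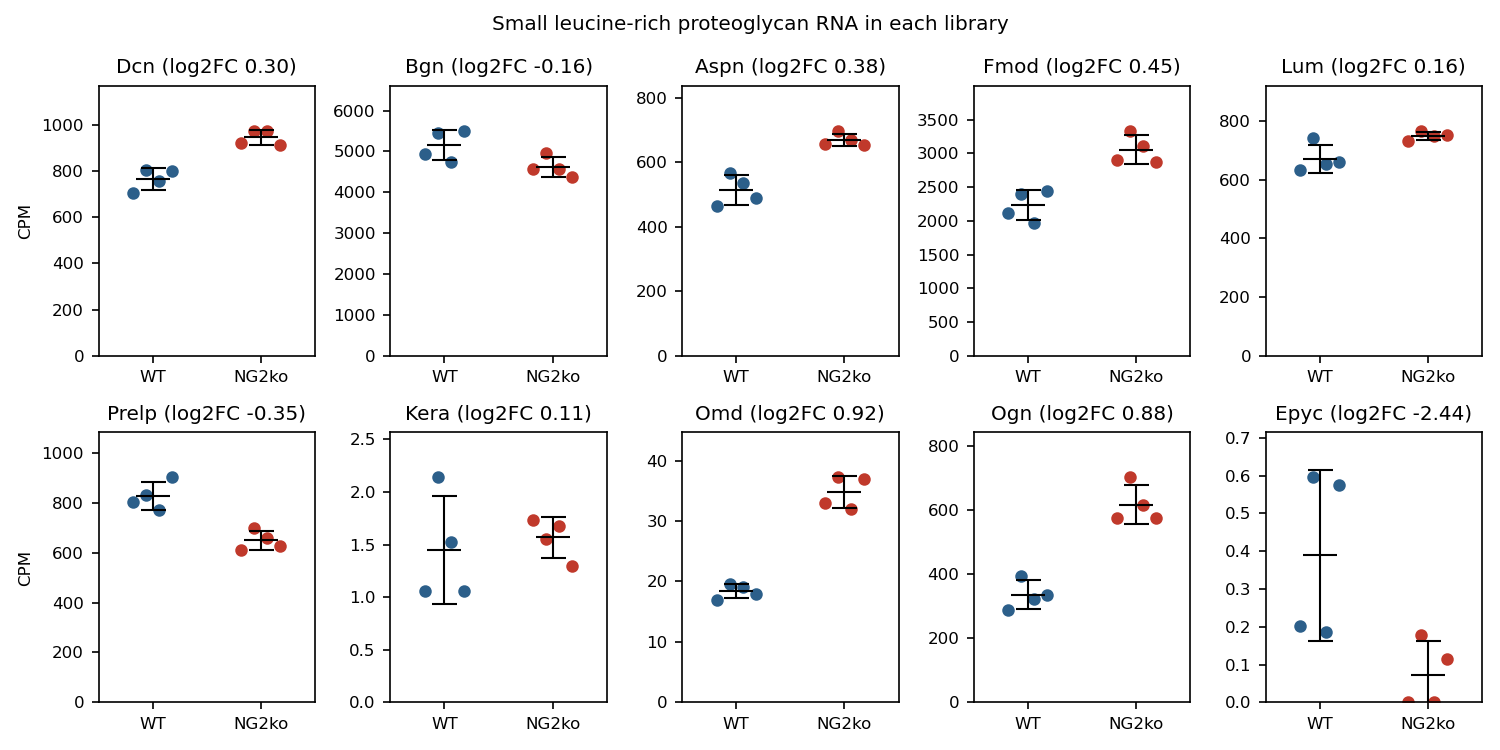
CPM of each member in the 4 WT (blue) and 4 NG2ko (red) libraries, with points for libraries, a bar for the mean and whiskers of 1 SD, every axis starting at 0. Omd, Ogn, Aspn, Fmod and Dcn sit higher in each NG2ko library than in any WT library and Prelp sits lower, while Bgn, Lum and Kera overlap and Epyc is near 0.

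Total counts ranged from 60317187 to 83668935 per library. Dixon's outlier test, which has little power with 4 values, marked no library within its group in any member. NG2ko replicate 2 nevertheless had the highest CPM of its group in every member except Kera. The members together took 1.22% of its counts, against 1.12%, 1.15% and 1.11% in NG2ko replicates 1, 3 and 4. Cspg4 was at 9.37 ± 2.85 CPM (SD, n = 4) in NG2ko and 221 ± 17.2 CPM (SD, n = 4) in WT, a log2 fold change of -4.56, and no NG2ko library reached the level of a WT library (p = 0.0286 in an exact permutation test, two-sided, the lowest value possible with 4 against 4). Genes of cartilage and of fibrous tissue were both present, with Col2a1 at 49.7 CPM, Acan at 51.9 CPM and Col1a1 at 21394 CPM in WT, whereas the endothelial list summed to at most 1.34 CPM in any library. Markers of myeloid cells and Y-linked genes also differed between the groups. Of 14 myeloid markers 12 were higher in NG2ko and 0 lower, with summed levels of 347 to 403 CPM against 100 to 120 CPM, none of them at 0 in either group mean, and Lyz2, the lysozyme gene, rose from 83.5 to 277 CPM. All 4 Y-linked genes were higher in NG2ko, summing to 188 to 202 CPM against 0 to 0.286 CPM in WT, with Eif2s3y and Uty at 0 in every WT library. Sex and genotype therefore cannot be told apart in any result given here, and the part of the myeloid cells was not tested. In bulk RNA, fewer cells of a type and less RNA per cell cannot be told apart either.

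Aspn, Omd and Ogn lie next to each other on chromosome 13 in the same orientation, and all 3 rose. On GRCm38 Aspn spans chr13:49544443-49567565, Omd spans chr13:49582462-49592822 and Ogn spans chr13:49608046-49624501, all on the plus strand, with gaps of 14.9 kb and 15.2 kb between them. The 250 bases before the RefSeq start of each gene (GRCm38.p6, plus strand) are shown because these neighbours all rose, although Aspn rose by less than Omd and Ogn. Capitals mark matches, on either strand, to the 6 short motifs searched.

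Aspn, chr13:49544193-49544442: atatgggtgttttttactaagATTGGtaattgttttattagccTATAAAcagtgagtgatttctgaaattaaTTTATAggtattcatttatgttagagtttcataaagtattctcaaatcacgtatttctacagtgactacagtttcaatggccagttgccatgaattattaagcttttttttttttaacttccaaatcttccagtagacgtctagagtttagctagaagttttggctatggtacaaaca

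Omd, chr13:49582212-49582461: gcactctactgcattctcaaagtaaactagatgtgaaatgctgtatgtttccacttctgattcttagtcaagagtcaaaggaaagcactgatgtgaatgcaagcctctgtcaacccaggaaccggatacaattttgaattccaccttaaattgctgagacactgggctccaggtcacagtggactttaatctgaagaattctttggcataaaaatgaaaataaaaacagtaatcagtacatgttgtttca

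Ogn, chr13:49607765-49608014: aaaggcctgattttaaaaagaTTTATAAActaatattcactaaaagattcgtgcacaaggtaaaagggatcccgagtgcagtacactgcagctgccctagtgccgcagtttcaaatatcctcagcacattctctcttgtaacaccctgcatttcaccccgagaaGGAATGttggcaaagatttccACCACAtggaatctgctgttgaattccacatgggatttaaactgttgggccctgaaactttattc

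The motifs were the TATA box (TATAAA, in 12.97% of 27025 promoter windows of this length), the CCAAT box (CCAAT, 34.5%), the GC box (GGGCGG, 32.9%), the AP-1 motif (TGANTCA, 6.87%), the TEAD motif (CATTCC, 12.6%) and the Runx motif (TGTGGT, 14.2%), each searched on both strands. Aspn held TATA letters at -207 and -178 from the start and a CCAAT match at -229. Ogn held TATA letters on both strands that overlap at -229 to -222, a TEAD match at -86 and a Runx match at -65. No motif was shared by all 3 windows, and Omd held none. These windows were poor in G and C, with 30.0% in Aspn, 38.4% in Omd and 42.0% in Ogn against a median of 52.0% over all windows. Low values were not particular to these genes. Of the members not called, the windows of Kera (42.4%) and Epyc (39.2% and 31.2%) were also below this median. The window of Bgn (64.4%), also not called, was above it. Letter matches describe the sequence and say nothing of whether a factor was bound.

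Osteomodulin, encoded by Omd, is a keratan sulfate proteoglycan of mineralizing tissue that binds fibrillar collagen. Omd was at 32.9, 37.2, 32.1 and 36.9 CPM in NG2ko replicates 1 to 4 and at 17.0, 19.6, 19.1 and 17.99 CPM in WT replicates 1 to 4. The lowest NG2ko library was well above the highest WT library, and the spread within each group was small. The means were 34.8 ± 2.66 CPM (SD, n = 4) and 18.4 ± 1.14 CPM (SD, n = 4), a log2 fold change of 0.92 (SE, the standard error, 0.08, edgeR adjusted p = 6.02e-05), and Omd ranked 80 of 17190 genes by p, ahead of every other member.

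Osteoglycin, also called mimecan and encoded by Ogn, regulates fibril diameter and is abundant in bone and fibrous tissue. Ogn was at 575, 703, 618 and 576 CPM in the NG2ko libraries and at 290, 396, 324 and 337 CPM in the WT libraries. The groups were separated by a wide gap, and replicate 2 was the highest library in each group. The log2 fold change was 0.88 (SE 0.10, edgeR adjusted p = 4.28e-04), with means of 618 ± 60.1 CPM (SD, n = 4) and 337 ± 44.3 CPM (SD, n = 4).

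Asporin, encoded by Aspn, binds collagen and restrains TGF-beta signaling in cartilage. Aspn was at 657, 697, 669 and 654 CPM in NG2ko and at 464, 566, 537 and 488 CPM in WT. All NG2ko libraries were higher than all WT libraries, by a smaller margin than for its neighbours. Its log2 fold change was 0.38 (SE 0.06, edgeR adjusted p = 0.00363), between means of 669 ± 19.6 CPM (SD, n = 4) and 514 ± 46.3 CPM (SD, n = 4).

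Within each library the ratio of Ogn to Omd, taken per length from the FPKM values of the authors (fragments scaled to gene length and library size), stayed in the same range, with 13.7 to 16.9 in NG2ko and 14.9 to 17.8 in WT. In contrast, the ratio of Aspn to Omd was 16.9 to 19.95 in NG2ko and 25.9 to 27.7 in WT, with no overlap. The ratio of Ogn to Aspn was 0.803 to 0.926 in NG2ko and 0.554 to 0.642 in WT. In these values Omd and Ogn kept their proportion to each other while both gained on Aspn. The ratios are a description and were not tested.

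Around the 3 members, 0 of 10 other tested genes within 500 kb on chromosome 13 passed edgeR's test, against 12.2% of all tested genes. Among the 10 neighbours, 1 had an unadjusted p under 0.05. The nearest upstream gene, Ecm2, encodes a related leucine-rich matrix protein and lies 11.7 kb from Aspn, and its log2 fold change was 0.07 (SE 0.10, edgeR adjusted p = 0.717). Nol8, a nucleolar protein gene on the other side of Ogn, had a log2 fold change of 0.14 (SE 0.17, edgeR adjusted p = 0.666). Cenpp, which encodes a centromere protein, runs on the opposite strand across the 3 members, but had only 29 to 102 counts per library. Its largest overlap with a single exon of the main coding transcript was 7 bases in Aspn, and there was none in Omd or Ogn.

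**Figure D2:**
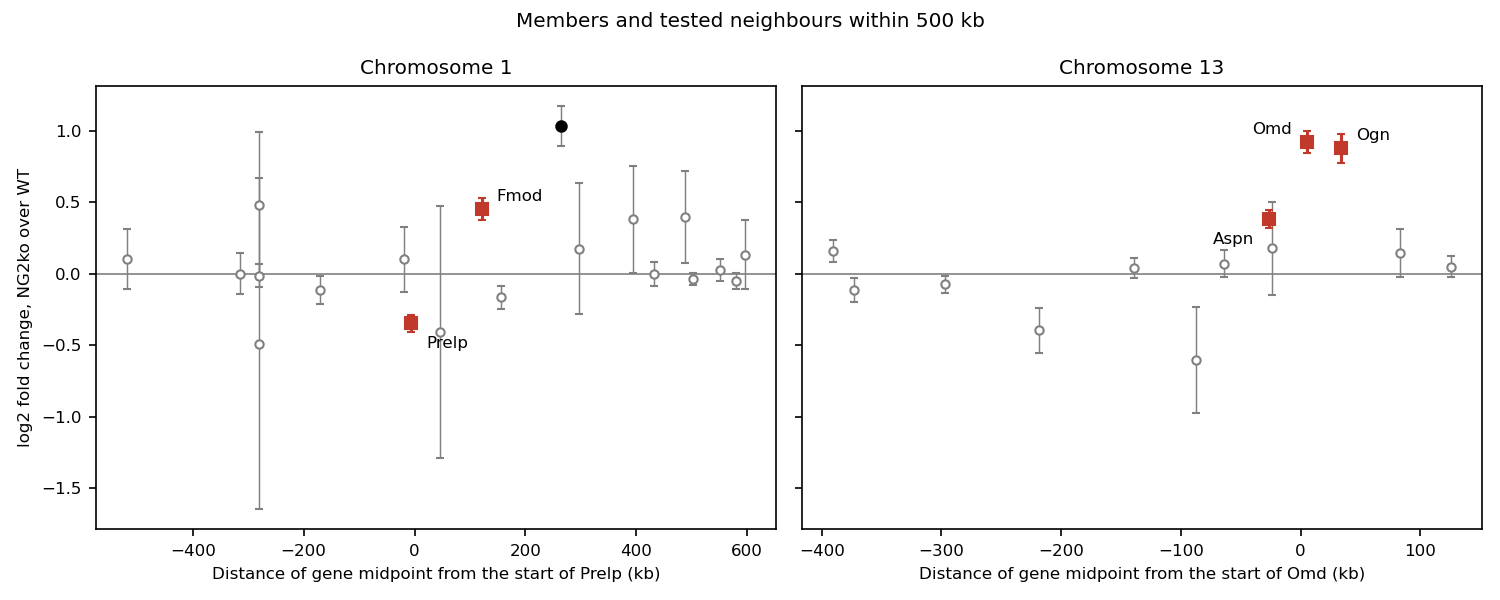
Log2 fold change with its standard error for members (red squares) and other tested genes within 500 kb (circles, black where called), against the distance of each gene's midpoint from the start of Prelp on chromosome 1 (left) or of Omd on chromosome 13 (right). On chromosome 13 the 3 members lie at 0.38, 0.92 and 0.88, and 0 of 10 neighbours were called, against 12.2% of all tested genes. On chromosome 1 Fmod at 0.45 and Prelp at -0.35 lie on opposite sides of 0.

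Fmod and Prelp, both of class II, are also neighbours, on chromosome 1, and they moved in opposite directions. Prelp spans chr1:133910304-133921414 on the minus strand and Fmod spans chr1:134037254-134048277 on the plus strand, 115.84 kb apart and pointing away from each other. Their upstream windows are shown for contrast with the chromosome 13 genes, Prelp on the minus strand and Fmod on the plus strand of GRCm38.p6, with motif matches in capitals as before.

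Prelp, chr1:133921402-133921651: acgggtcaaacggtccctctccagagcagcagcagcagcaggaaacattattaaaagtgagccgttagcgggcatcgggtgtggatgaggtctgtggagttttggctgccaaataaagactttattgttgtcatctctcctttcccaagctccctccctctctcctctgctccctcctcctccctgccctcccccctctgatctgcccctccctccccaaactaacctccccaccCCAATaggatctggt

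Fmod, chr1:134037004-134037253: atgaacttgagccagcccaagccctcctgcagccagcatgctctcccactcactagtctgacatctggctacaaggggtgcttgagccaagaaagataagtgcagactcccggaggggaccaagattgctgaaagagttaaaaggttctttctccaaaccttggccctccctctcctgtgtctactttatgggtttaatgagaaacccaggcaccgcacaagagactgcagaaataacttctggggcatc

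The Prelp window held 1 CCAAT match at -15 and was 55.6% G and C, and the Fmod window held no match and was 51.2% G and C. Fibromodulin, encoded by Fmod, is a keratan sulfate proteoglycan that guides collagen fibril assembly and crosslinking in cartilage and tendon. Fmod was at 2902, 3331, 3108 and 2868 CPM in NG2ko and at 2120, 2399, 1970 and 2447 CPM in WT, so that each NG2ko library exceeded each WT library. Its means were 3052 ± 214 CPM and 2234 ± 227 CPM (SD, n = 4 each), with a log2 fold change of 0.45 (SE 0.08, edgeR adjusted p = 0.00431).

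PRELP, encoded by Prelp, has a basic N-terminal region that binds heparan sulfate and links basement membrane proteoglycans to collagen. Prelp was at 611, 700, 658 and 627 CPM in NG2ko and at 802, 830, 772 and 901 CPM in WT. It was the 1 member called lower, and its highest NG2ko library was below its lowest WT library. The means were 649 ± 39.4 CPM and 826 ± 55.3 CPM (SD, n = 4 each), with a log2 fold change of -0.35 (SE 0.06, edgeR adjusted p = 0.00492). Single exons of Prelp overlap those of the antisense gene Gm15851 by up to 350 bases, and Gm15851 had 0 to 5 counts per library.

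The balance between the pair shifted in every library. Per length, Fmod was 5.004 to 5.20 times the level of Prelp in NG2ko and 2.79 to 3.16 times in WT. Among 18 other genes tested within 500 kb of the pair 1 was called, against 12.2% of all tested genes. It was Chil1, which encodes a chitinase-like protein of cartilage and macrophages and lies 134 kb from Fmod. Chil1 rose with a log2 fold change of 1.03 (edgeR adjusted p = 0.00104). Optc, the opticin gene of class III, lies 3.13 kb from Prelp and had a log2 fold change of 0.10 (SE 0.23), and Btg2, 26.9 kb from Fmod, had one of -0.17 (SE 0.08), neither called.

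The remaining class I members, decorin and biglycan, are close homologs that both carry chondroitin or dermatan sulfate chains and bind TGF-beta. Dcn was at 922, 972, 971 and 913 CPM in NG2ko and at 703, 805, 754 and 798 CPM in WT, with no overlap. The change was modest, with means of 945 ± 31.6 CPM and 765 ± 47.0 CPM (SD, n = 4 each) and a log2 fold change of 0.30 (SE 0.05, edgeR adjusted p = 0.00473).

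Bgn had more counts than any other member and was at 4571, 4958, 4577 and 4386 CPM in NG2ko and at 4941, 5443, 4745 and 5501 CPM in WT. NG2ko replicate 2 lay above WT replicates 1 and 3, so the groups overlapped. The log2 fold change was -0.16 (SE 0.06, edgeR adjusted p = 0.140), which missed the threshold in the direction opposite to Dcn. Bgn lies on chromosome X (GRCm38 chrX:73483602-73495933, plus strand), and Y-linked expression differs between the groups along with genotype. Of 20 other tested genes within 500 kb of Bgn, 2 were called, against 12.2% of all tested genes. They were Zfp185 (log2 fold change 0.92) and Pdzd4 (0.27), both higher in NG2ko. Both lost the call when single libraries were left out (adjusted p up to 0.0670 and 0.122 in edgeR). The nearest tested genes, Haus7 at 0.16 (SE 0.07) and Dusp9 at -0.24 (SE 0.27), were not called. The ratio of Dcn to Bgn per length was 0.205 to 0.222 in NG2ko and 0.149 to 0.166 in WT.

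Dcn, Lum, Kera and Epyc follow each other on the plus strand of chromosome 10, with gaps of 47.0, 34.2 and 30.4 kb, and no other gene within 500 kb of them was tested. Lumican, encoded by Lum, is the keratan sulfate proteoglycan closest to fibromodulin and shares its collagen binding. Lum was at 733, 766, 749 and 751 CPM in NG2ko and at 634, 741, 653 and 659 CPM in WT, where WT replicate 2 reached into the NG2ko range. Its log2 fold change was 0.16 (SE 0.05, edgeR adjusted p = 0.0900), and without WT replicate 2 it passed, with a log2 fold change of 0.21 (adjusted p = 0.0109).

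Keratocan, encoded by Kera, is best known from the corneal stroma. Kera was at 1.74, 1.56, 1.68 and 1.30 CPM in NG2ko and at 1.06, 2.14, 1.53 and 1.06 CPM in WT, so the WT range enclosed the NG2ko range. Its log2 fold change was 0.11 with a standard error of 0.26 (edgeR adjusted p = 0.842), which leaves room for a change of either sign. Epiphycan, encoded by Epyc, is a dermatan sulfate proteoglycan of growth plate cartilage. Epyc had 0, 12, 0 and 8 counts in NG2ko and 12, 49, 13 and 37 counts in WT, and the groups did not overlap in CPM. A count of 0 allows up to 3 counts, for counting error only. The fitted log2 fold change of -2.44 had a standard error of 1.02 (edgeR adjusted p = 0.163), with few counts and a wide spread among the WT libraries. Single exons of Epyc overlap those of the antisense gene Gm10754 by up to 1041 bases, and Gm10754 had 0 counts in every library. Of the 4 genes of this cluster, only Dcn was called.

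**Figure D3:**
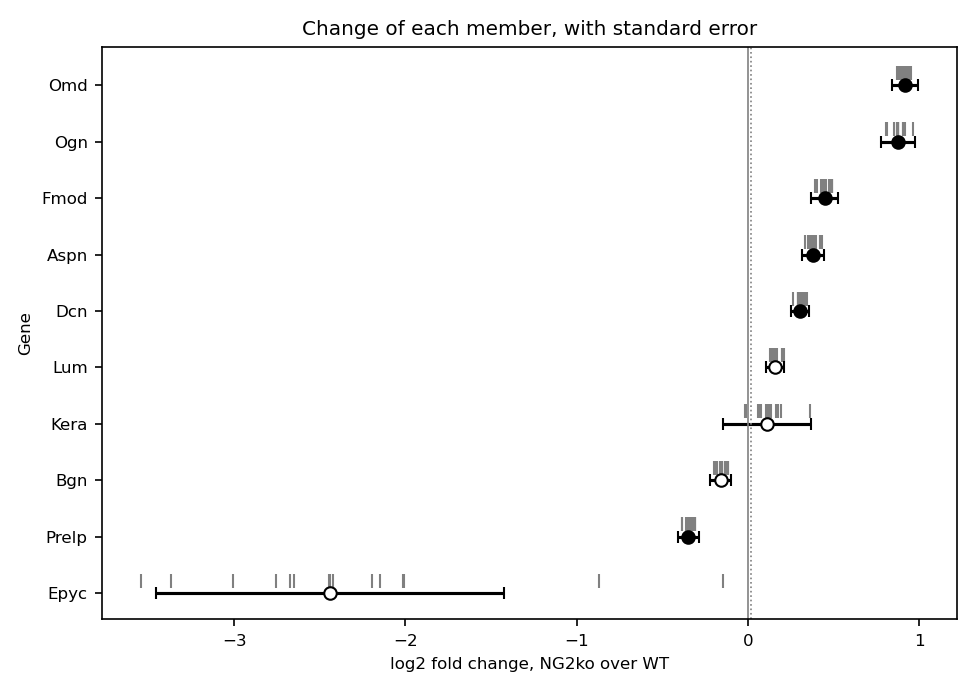
Log2 fold change of NG2ko over WT for each member (circles, filled where the adjusted p was under 0.05, with bars of 1 standard error), with grey ticks for its values under the alternative settings and a dotted line at the median of all tested genes, 0.02. Omd at 0.92 and Ogn at 0.88 stand apart from Fmod, Aspn and Dcn between 0.30 and 0.45, and the Epyc interval is far wider than the others.

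Levels of different genes can be compared only per length, and the FPKM values gave the family the following order. In WT, Bgn was highest at 755 ± 48.2 FPKM (SD, n = 4), followed by Fmod at 603 ± 56.3, Lum at 245 ± 16.6, Prelp at 204 ± 12.0 and Aspn at 195 ± 18.02 FPKM. Ogn and Dcn followed at 117 ± 15.05 and 117 ± 6.72 FPKM, then Omd at 7.30 ± 0.476, Kera at 0.563 ± 0.201 and Epyc at 0.134 ± 0.0788 FPKM. The ranges of Prelp and Aspn overlapped, as did those of Ogn and Dcn, and all other neighbours in the order were separated.

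In NG2ko, Fmod was highest at 846 ± 53.6 FPKM (SD, n = 4) and Bgn was next at 695 ± 31.7 FPKM, followed by Lum at 281 ± 4.86, Aspn at 261 ± 6.07, Ogn at 221 ± 20.1, Prelp at 165 ± 9.08, Dcn at 148 ± 3.94 and Omd at 14.2 ± 1.12 FPKM. Every neighbour in this order was separated. Bgn was above Fmod in all 4 WT libraries and Fmod above Bgn in all 4 NG2ko libraries, as the ratio of Fmod to Bgn was 1.17 to 1.25 in NG2ko and 0.766 to 0.820 in WT. The ratio of Ogn to Prelp likewise crossed 1, with 1.29 to 1.41 in NG2ko and 0.510 to 0.673 in WT. These were descriptions of the order and were not tested.

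The family as a whole took 1.15 ± 0.0503% of all counts in NG2ko and 1.04 ± 0.0675% in WT (SD, n = 4 each), ranges that did not overlap but nearly met. In CPM, which also take in the TMM factors, its summed level was 10813 to 12167 in NG2ko and 9775 to 11202 in WT, which overlapped. The TMM factors were 1.004 to 1.026 in NG2ko and 0.975 to 0.998 in WT. Per length, its summed level was 2632 ± 124 FPKM in NG2ko and 2243 ± 145 FPKM in WT. FPKM leaned toward NG2ko over all tested genes, with a median log2 fold change of 0.05 (pseudocount 0.1) against 0.02 in the main fit. Class III genes, almost entirely Ogn, made up 8.38 ± 0.361% of the summed FPKM in NG2ko and 5.22 ± 0.434% in WT. The class I share was 42.0 ± 0.615% against 47.6 ± 0.574%, and the class II share was 49.7 ± 0.384% against 47.2 ± 0.740%. No class share overlapped between the groups, but members of a class did not move alike. In class I the mean share of Bgn was 26.4% in NG2ko against 33.6% in WT. Those of Aspn (9.91% against 8.70%) and Dcn (5.64% against 5.22%) were higher. In class II the share of Fmod was 32.1% against 26.8%, and that of Omd was 0.539% against 0.326%. Those of Prelp (6.25% against 9.10%) and Lum (10.7% against 10.9%) were lower.

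**Figure D4:**
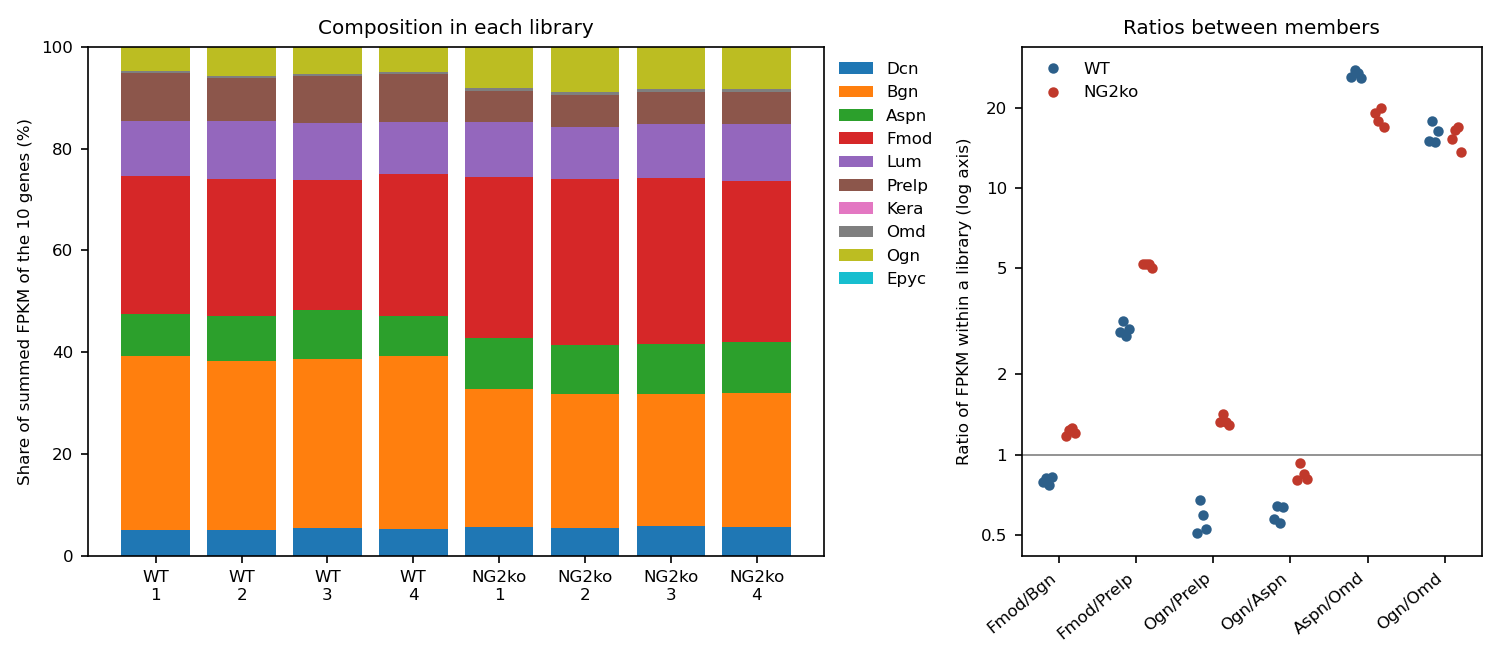
Left, share of each member in the summed FPKM of the 10 genes in every library. Right, FPKM ratios of member pairs within each WT (blue) and NG2ko (red) library on a log axis, where Fmod/Bgn crosses 1 from 0.766 to 0.820 in WT to 1.17 to 1.25 in NG2ko and only Ogn/Omd, of the 6 ratios drawn, overlaps between the groups.

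The spread among replicates differed between members. The coefficient of variation of CPM was 1.81% to 9.73% in NG2ko and 6.14% to 13.2% in WT for the 8 members other than Kera and Epyc, beside medians of 10.4% and 12.3% over tested genes. It was 12.4% and 35.3% for Kera and 121% and 58.1% for Epyc. Among 13566 genes averaging 1 CPM or more, the 3 whose centred log2 CPM was closest to that of Omd over the 8 libraries were the RNA gene Snhg12 (root mean square difference 0.0688), the prostaglandin dehydrogenase gene Hpgd (0.0834) and the amino acid transporter gene Slc7a3 (0.0969). The 3 closest to Bgn included the endolysosomal channel gene Tpcn1 (0.0298) and the phosphatase scaffold gene Ppp1r9b (0.0327). No other member was among either set of 3.

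By their main coding transcripts the proteins ran from 298 residues in Ogn to 423 in Omd. The class II genes Fmod, Lum, Prelp and Kera each had 3 exons and Omd had 4, class I genes had 8 each, and the class III genes Ogn and Epyc had 7 each. Genes called higher were found in all 3 classes and with 3, 4, 7 and 8 exons, and Prelp, the member called lower, had 3.

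The genes around the family in the matrix were read from lists of its partners. Each list is set beside all tested genes, of which 5.45% were called higher and 6.75% lower. Other leucine-rich repeat matrix genes were not called by edgeR, with 0 of 5 tested higher or lower and a median log2 fold change of 0.07. Podn, which encodes podocan, had a log2 fold change of 0.41 (SE 0.21, and 0.18 without NG2ko replicate 2), Podnl1 had one of -0.40 (SE 0.14), called by DESeq2 only (adjusted p = 0.0438), and Tsku, which encodes tsukushi, had one of 0.05 (SE 0.09).

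Among 14 fibril collagens and collagen partners, 5 were higher and 1 was lower, against 5.45% and 6.75% of all tested genes. Their median log2 fold change was 0.12. The rises were in Col2a1, the main collagen of cartilage, at 0.83, in Col14a1, a fibril-associated collagen known to bind decorin, at 1.94, in Col12a1, its relative in fibrous tissue, at 0.49, and in Col11a1 and Col11a2, minor partners of type II collagen, at 0.45 and 1.29. The call of Col11a1 was lost on leaving out any of 6 of the 8 libraries (adjusted p up to 0.0803 in edgeR). Col5a3 fell, with a log2 fold change of -0.50. Col1a1, a chain of type I collagen, had a log2 fold change of 0.14 (SE 0.08, edgeR adjusted p = 0.353).

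The enzymes that build and sulfate the chains of these proteoglycans were read as separate lists for the chain types. Of 20 linker and chondroitin or dermatan sulfate enzymes, 1 was higher and 3 were lower, against 5.45% and 6.75% of all tested genes. Their median log2 fold change was 0.03. Chsy3, a chondroitin polymerase, rose (0.31), whereas the chondroitin 4-sulfotransferases Chst11 (-0.34) and Chst12 (-0.33) and the dermatan 4-sulfotransferase Chst14 (-0.24) fell. Of 7 keratan sulfate enzymes, 0 were higher and 2 were lower, with a median of -0.21. B4galt1, a galactosyltransferase that extends the chain, fell from 260 to 212 CPM (log2 fold change -0.30), and Chst1, which sulfates its galactose, fell from 4.09 to 1.80 CPM (log2 fold change -1.18). The others were Chst2 at -0.21, B3gnt2 at -0.75, Chst5 at 0.34, B3gnt7 at 0.38 and B4galt4 at 0.03, none of them called. Leaving out single libraries moved B3gnt2 between -1.09 and -0.45 (without NG2ko replicate 2) and Chst5 between 0.08 (without WT replicate 3) and 0.63.

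Of 12 tested proteases and cofactors that process or cut members, 2 were higher and 2 were lower, against 5.45% and 6.75% of all tested genes. Their median log2 fold change was -0.07. Mmp13, a collagenase that also cleaves fibromodulin, rose from 63.1 to 89.1 CPM (0.50). Mmp9, a gelatinase also made by myeloid cells, rose from 0.277 to 1.84 CPM (2.72), beside the higher myeloid markers, whose part was not tested. Tll1, of the BMP1 family of processing proteases, fell (-0.58), as did Htra1, a serine protease that degrades decorin and biglycan in vitro (-0.25).

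Of 20 tested ligands and receptors known to bind family members, 1 was higher and 3 were lower, against 5.45% and 6.75% of all tested genes. Their median log2 fold change was -0.03. Igf1r, a receptor that decorin binds, fell from 103 to 76.9 CPM (-0.43), and Lrp1, an endocytic receptor for decorin, fell from 1643 to 1111 CPM (-0.56). Bmp2, bound by biglycan and asporin, fell (-0.64, edgeR adjusted p = 0.0333) and Tgfbr1, a TGF-beta receptor, rose (0.30, adjusted p = 0.0454), although both lost the call when single libraries were left out, with adjusted p up to 0.0910 and 0.112.

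**Figure D5:**
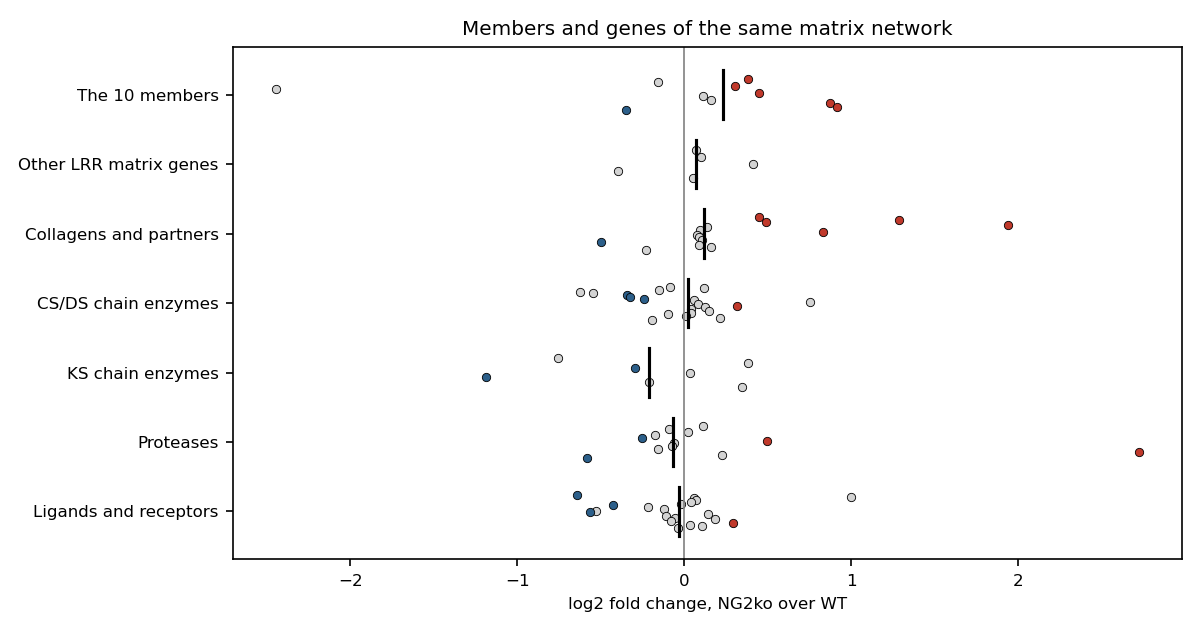
Log2 fold change of NG2ko over WT for the tested genes of each list, red where called higher, blue where called lower and grey where not called, with a black line at each list's median. The members have a median of 0.23, with 5 called higher and 1 lower. The keratan sulfate (KS) enzymes have a median of -0.21, with 0 higher and 2 lower. Among all tested genes 5.45% were called higher and 6.75% lower (CS/DS, chondroitin or dermatan sulfate, and LRR, leucine-rich repeat).

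Markers of the cell types in the culture were read beside the members, and beside the 5.45% of all tested genes called higher and 6.75% called lower. Of 11 tested chondrocyte markers 9 were higher in NG2ko and 0 lower, and their median log2 fold change was 0.79, with summed levels of 1267 to 1549 CPM against 900 to 1179 CPM. Hapln1, which links aggrecan to hyaluronan, rose (0.79), as did the transcription factor gene Sox6 (0.93) and Cnmd, which encodes chondromodulin (2.64). Matn3 had at most 48 counts in any library and was not tested. Of 9 fibrous layer markers 2 were higher, Cilp (1.06) and Tnmd (0.53), and 1 was lower, Postn (-0.31, a call lost in 6 of 16 alternatives), with a median of 0.14. Of 8 osteoblast markers 3 were higher and 4 were lower, with a median of -0.20, with Sp7 (1.12) and Alpl (1.58) higher and Bglap2 (-0.65) and Spp1 (-0.49) lower. Of 5 tested mural cell markers 1 was lower, Myh11 (-0.79), and of 3 tested endothelial markers 0 were called. The part of these markers in the changes of the members was not tested.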

How the data were processed

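RNA was measured in 4 NG2ko and 4 WT libraries of primary mandibular fibrochondrocytes, grouped by the genotype in the sample labels. The authors prepared stranded poly(A) libraries, mapped reads with HISAT2 and estimated expression with StringTie and edgeR. They deposited 1 table with raw counts and FPKM per gene and library. The program that counted, its strand setting and the versions are not given in the sources used here. Gene positions are those of the table. Of its 55401 genes, 55141 were found by identifier in GENCODE M21 on GRCm38, and 94.2% of those matched in chromosome, start and end.

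Counts were scaled by TMM, filtered by filterByExpr (minimum count 10) and tested by edgeR 4.0.16 under R 4.3.3 (quasi-likelihood test, robust, genotype as the only term), with Benjamini-Hochberg adjustment over 17190 genes and calls at an adjusted p under 0.05. Standard errors were obtained from the F statistic, as the size of the log2 fold change over its square root. The code was tested on simulated counts. FPKM, which the authors list as 0.0001 where the count is 0, served for orders, shares and ratios. Replicates differed beyond counting noise, and the edgeR p-values weigh the difference between the groups against that spread. The number of pups per library is not given, so this may be a spread between animals or between cultures. Promoter windows came from RefSeq (8 of 10 members matched).

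The text names Cspg4, the members, up to 4 genes of smallest p per list (and every gene of the lists of up to 7 partner genes that was tested), the nearest tested neighbours and the 3 genes most alike Omd and Bgn. The endothelial and mural lists are given as counts. A single gene under this rule is not reported here. Chil1, Zfp185, Pdzd4, Acan, Col1a1, Col11a1, Col11a2, Cenpp, Gm15851, Gm10754 and Matn3 were named after their values were seen. Members and lists were chosen with earlier results of these data known. Alternatives were a replicate block, each library left out in turn, a minimum of 50 counts or no filter, DESeq2 1.42.0, upper-quartile scaling, limma-voom (limma 3.58.1) and FPKM with limma at pseudocounts of 0.1 and 1.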

Additional observations from a re-analysis of the deposited data

How the results depend on the processing

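All 6 called members kept their direction and their call under all 16 alternatives, with adjusted p up to 0.0203. Lum passed the threshold under FPKM with a pseudocount of 0.1 (log2 fold change 0.20, adjusted p = 0.0441) and of 1 (0.20, 0.0453), and without WT replicate 2; leaving out each library moved it between 0.13 and 0.21. Kera had values from -0.0152 to 0.36 when libraries were left out, below 0 without WT replicate 1 (-0.00929) or 4, and no call. Epyc was not tested at a minimum of 50 counts. With the replicate block 5 members were higher and 1 lower, as without it, while 792 and 1023 of all genes were called higher and lower against 937 and 1160. Bmp2, Tgfbr1 and Pdzd4 lost their calls with the block. Same-numbered NG2ko and WT libraries correlated by 0.000995 to 0.0441 in their deviations, and differently numbered ones by -0.0297 to 0.0158. The labels do not say whether a number marks a shared litter or day. Correlations this small cannot settle it, so the block was kept as an alternative. Leaving out a library gave 613 to 900 genes higher, the lowest without NG2ko replicate 3, and 838 to 1089 lower. The share of calls that were higher was 44.7%, and with FPKM 57.3% (pseudocount 0.1) and 57.6% (pseudocount 1); DESeq2 called 1254 higher and 1528 lower. Leaving out single libraries moved Tsku between -0.0274 and 0.10, Optc between -0.00578 and 0.22 and Nol8 between -0.0120 and 0.29, all below 0 without WT replicate 3, and B3gnt7 between -0.0358 (without NG2ko replicate 1) and 0.68, none called; the cause was not tested. Kera and Epyc had at most 176 counts in a library. Sex, myeloid content and breeding line differ along with genotype.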
